A study of Mus musculus with 12 samples.

Results

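The STAT and SOCS genes of the mouse colon were examined in RNA sequencing of whole colon. The members were the 10 of 54532 genes in the deposited table whose symbol was Stat3, Stat4, Stat5a, Stat5b, Stat6, Socs1, Socs2, Socs3, Cish or Jak2, and all 10 passed the filter on low values. The study asked what the loss of STING, encoded by Tmem173, in myeloid cells does to colitis caused by dextran sodium sulfate (DSS), a polymer in the drinking water that injures the colon epithelium. Each of 4 groups held 3 libraries from 6 to 8-week-old mice on a C57BL/6N background. Tmem173fl/fl mice (labelled WT) carried the floxed Tmem173 allele without Cre, and Tmem173iΔmye mice (labelled CRE) carried the same allele with a tamoxifen-inducible Cre driven from Lyz2, a gene of macrophages, monocytes and neutrophils. All 4 groups, the controls included, were given tamoxifen 5 times. The colitic groups of both genotypes then drank 2.5 to 3% DSS for 7 days and, per the study's methods, water for a day after that. The untreated groups of both genotypes drank water. The Cre acts only in the myeloid cells of a tissue that holds many other cell types, and the share of RNA from cells in which the allele was targeted was not measured. The samples of a group were chosen at random per the study's methods, the genotypes were litter-mates per its text, no source used here pairs single samples by litter, and p-values measure the spread between these samples.

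STAT proteins are transcription factors that wait in the cytoplasm until a cytokine receptor and its bound Janus kinase (JAK) phosphorylate them. They then pair, enter the nucleus and switch on target genes, among them the SOCS genes, whose products block the receptor or kinase and close a negative feedback loop. In the injured gut STAT3 is known for its part in epithelial repair and in the acute phase response, STAT4 for T helper 1 cells, STAT5 for growth and survival signals, and STAT6 for the response to interleukin-4 and interleukin-13. RNA levels do not show phosphorylation, so the values below are the supply of these transcripts and not the activity of the proteins.

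Palindromic letters of the kind that STAT dimers bind were looked for near the start sites, since 3 members rose together in colitis (below). RefSeq windows on build GRCm38.p6, from 250 bases before to 50 after a start site, were given for 9 of the 10 members, 12 windows in all, and Socs2 was not among them. The motif TTCNNNGAA, which reads the same on both strands, was in 2 of the 12 windows, those of Socs3 and Cish, and in 8.30% of all 32851 windows. The motif TTCNNNNGAA, also the same on both strands, was in 0 of the 12 and in 6.95% of all windows. The lines below are shown because they set the promoters of Socs3 and Stat3, which rose with DSS, beside that of Cish, which did not pass the test. Each runs 5′ to 3′ from 250 bases before to 30 after the start, with the letters that match TTCNNNGAA in capitals.
Socs3: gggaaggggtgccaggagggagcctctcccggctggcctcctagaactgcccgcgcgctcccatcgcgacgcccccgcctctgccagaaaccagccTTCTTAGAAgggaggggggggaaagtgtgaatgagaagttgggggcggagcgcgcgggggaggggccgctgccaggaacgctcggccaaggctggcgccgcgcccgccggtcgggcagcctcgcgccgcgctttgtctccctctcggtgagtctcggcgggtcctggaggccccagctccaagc
Stat3: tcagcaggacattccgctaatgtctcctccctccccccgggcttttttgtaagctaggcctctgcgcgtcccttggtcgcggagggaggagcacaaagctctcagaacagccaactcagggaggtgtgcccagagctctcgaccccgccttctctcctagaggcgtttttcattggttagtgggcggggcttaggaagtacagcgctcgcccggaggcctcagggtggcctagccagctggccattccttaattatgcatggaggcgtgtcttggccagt
Cish: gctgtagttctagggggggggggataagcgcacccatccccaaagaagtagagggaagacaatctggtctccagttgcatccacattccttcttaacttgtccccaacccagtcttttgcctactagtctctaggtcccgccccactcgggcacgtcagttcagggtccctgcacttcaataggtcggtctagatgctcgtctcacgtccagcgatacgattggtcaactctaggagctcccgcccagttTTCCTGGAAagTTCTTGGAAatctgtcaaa
The Socs3 stretch is chr11:117969337-117969616 on the minus strand, the Stat3 stretch chr11:100939511-100939790 on the minus strand and the Cish stretch chr9:107296409-107296688 on the plus strand. In Socs3 the match, TTCTTAGAA, began 154 bases before the start. In Cish the matches TTCCTGGAA and TTCTTGGAA began at bases 1 and 12, where base 1 is the start itself. The RefSeq start of Socs3 lay 681 bases inside the deposited gene and that of Cish 633 bases inside, while that of Stat3 was the end of the deposited gene. A match is a description of letters and not evidence of binding.

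Library totals ran from 13823237 to 18718915 counts, a narrow range. On principal components of log2 CPM (counts scaled to a common library total by the TMM method), the first held 56.0% of the variance, and the colitic Tmem173fl/fl libraries lay from 81.1 to 101.5 on it. The colitic Tmem173iΔmye libraries, numbered 1, 2 and 5 in the labels, lay at 53.4, 11.6 and -22.9, so this group was spread widely and library 5 stood apart, also on the second component, at -78.6. Results of the members that rest on this group are therefore given also without library 5, as are the numbers called in the pathway gene lists. The numbers for cell type markers and the genes nearest in pattern to Socs3, Socs2 and Stat3 are given with library 5 only. The paper reports that the myeloid knockout reduced the rise of Tmem173 mRNA in inflamed colon. In the libraries used here the targeted gene was not lower beyond its spread. Its log2 fold change with DSS was 1.07 in Tmem173fl/fl mice (SE 0.21, edgeR adjusted p 0.00255). In Tmem173iΔmye mice it was 0.95 (SE 0.28, edgeR adjusted p 0.135), and 1.05 without library 5. Tmem173 was at 42.4, 44.0 and 37.7 CPM in the colitic Tmem173fl/fl libraries and at 47.8, 23.8 and 31.1 CPM in the colitic Tmem173iΔmye ones (log2 fold change -0.28, SE 0.26, edgeR adjusted p 0.602; -0.21 without library 5), and the untreated genotypes differed by -0.21 (SE 0.22, adjusted p 1). Counts per gene cannot show the loss of floxed exons in a minority of cells.

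In colitic Tmem173fl/fl mice, Socs3, Socs2 and Stat3 rose over untreated Tmem173fl/fl mice, and 0 of the 10 members were called lower. Socs3 rose 16.7-fold, Socs2 2.45-fold and Stat3 1.98-fold in mean CPM. A gene was called when its edgeR adjusted p was under 0.05 and its absolute log2 fold change at least 1, and 14.9% of all 24102 genes tested were called higher and 7.61% lower. Against that background 3 of 10 members were called higher. The median log2 fold change of the members was 0.53, and that of all genes tested was 0.03.

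Socs3 (ENSMUSG00000053113, chromosome 11, 117966079 to 117970047, minus strand, GRCm38) encodes the feedback inhibitor of gp130, the shared receptor chain of the interleukin-6 family. It was at 23.9, 16.7 and 17.2 CPM in the untreated Tmem173fl/fl libraries and at 357.4, 275.5 and 331.5 CPM in the colitic ones. The lowest colitic library was far above the highest untreated one, and the log2 fold change was 4.13 (SE 0.20, edgeR adjusted p 9.27e-07). These values rest on 247 to 316 counts per untreated library and 4868 to 6596 per colitic library.

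Socs2 (ENSMUSG00000020027, chromosome 10, 95385362 to 95417180, minus strand) encodes an inhibitor of growth hormone receptor signalling that is itself induced by STAT5. Its levels were 25.6, 22.9 and 25.6 CPM without DSS and 50.8, 61.9 and 68.8 CPM with DSS in Tmem173fl/fl mice. The groups did not overlap, and the log2 fold change was 1.36 (SE 0.15, edgeR adjusted p 9.65e-05).

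Stat3 (ENSMUSG00000004040, chromosome 11, 100885098 to 100939540, minus strand) encodes the factor that acts after gp130. It was at 215.7, 209.7 and 221.6 CPM without DSS and at 382.5, 423.6 and 477.9 CPM with DSS. The untreated libraries were close together and all colitic libraries were higher, with a log2 fold change of 1.06 (SE 0.15, edgeR adjusted p 0.000362). This value lies just above the fold minimum and was 0.95 without colitic library 3, 0.98 with upper-quartile scaling and 0.99 in a fit of all 12 libraries, each with an adjusted p under 0.05.

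The other STAT genes changed less. Stat5a and Stat5b, neighbouring genes on chromosome 11 for near-identical factors of growth hormone, prolactin and interleukin-2 signalling, passed the adjusted p but not the fold minimum, so that 5 of 10 members, all with a higher level, passed the adjusted p alone, as did 35.4% of all genes tested in either direction. Stat5a was at 21.7, 19.2 and 19.8 CPM without DSS and at 31.3, 28.2 and 25.5 CPM with DSS (log2 fold change 0.55, SE 0.15, edgeR adjusted p 0.0168). Stat5b was at 48.9, 48.3 and 41.4 CPM without DSS and at 65.0, 71.1 and 51.9 CPM with DSS (log2 fold change 0.51, SE 0.15, edgeR adjusted p 0.0225). In both genes every colitic library was above every untreated one. The share of Stat5a in the summed FPKM (fragments scaled by gene length and library total) of the pair was 25.4% ± 1.77 without DSS and 26.1% ± 2.24 with DSS (SD, n = 3 each), a difference of 0.680 percentage points (exact two-sided permutation test, p = 0.6, where the smallest p that 3 against 3 allows is 0.1). That sign turned without untreated library 2 (-0.258) or colitic library 3 (-0.0584).

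Stat6, the factor of interleukin-4 and interleukin-13, was at 106.9, 129.6 and 112.6 CPM without DSS and at 140, 138.3 and 127.2 CPM with DSS. The groups overlapped and the log2 fold change was 0.29 (SE 0.13, edgeR adjusted p 0.121). Stat4, the factor of interleukin-12, had only 38 to 97 counts per Tmem173fl/fl library, with 2.88, 3.59 and 3.01 CPM without DSS and 5.26, 4.40 and 3.81 CPM with DSS (log2 fold change 0.58, SE 0.26, edgeR adjusted p 0.118). Its groups did not overlap, but the difference did not pass the test.

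Among the remaining inhibitors and the kinase, the point estimates were below 0 and none passed the test. Socs1, an inhibitor of interferon and JAK signalling, was at 28.5, 13.2 and 13.5 CPM without DSS and at 10.2, 15.4 and 4.97 CPM with DSS. Its spread was wide in both groups (log2 fold change -0.77, SE 0.41, edgeR adjusted p 0.178), and without colitic library 2 it was called lower (-1.21, adjusted p 0.0335). Cish, a STAT5-induced inhibitor of cytokine receptors, was at 15.5, 15.8 and 17.2 CPM without DSS and at 12.6, 17.7 and 14.2 CPM with DSS (-0.05, SE 0.19, adjusted p 0.863).

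Jak2, the kinase bound to the receptors of growth hormone, erythropoietin and many other cytokines, was at 149.3, 134.4 and 157.9 CPM without DSS and at 103.1, 126.5 and 124.7 CPM with DSS. It was the only member whose colitic libraries were all below the untreated ones, with a log2 fold change of -0.25 (SE 0.14, edgeR adjusted p 0.211). In all, 6 members were higher without overlap and 1 lower, while 23.9% of all genes tested were higher without overlap and 25.4% lower.

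**Figure D1:**
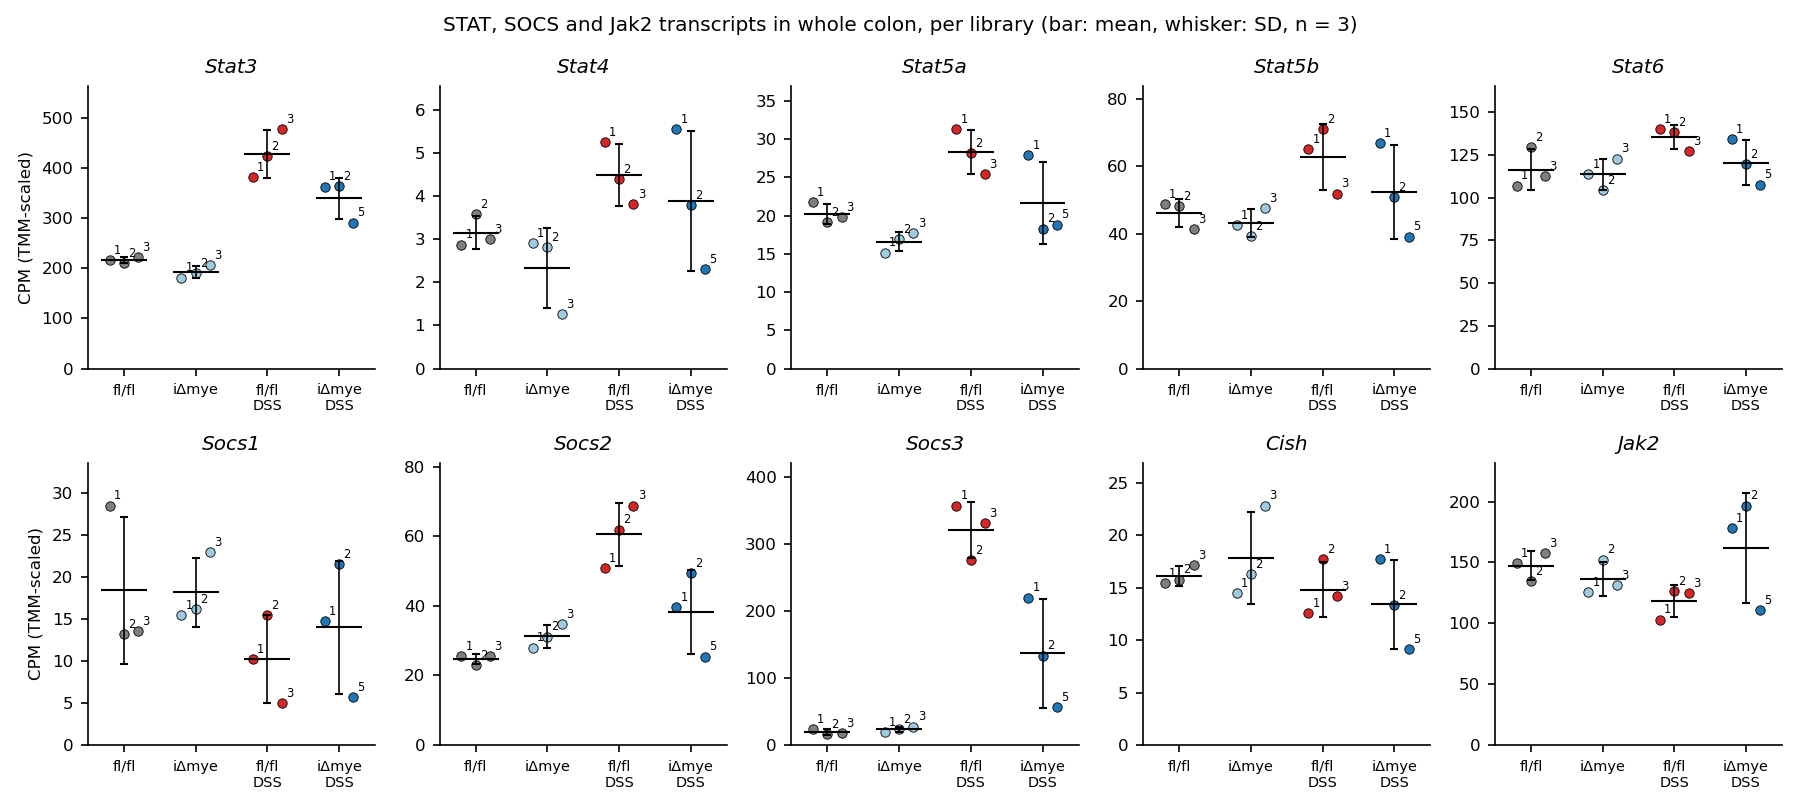
TMM-scaled CPM (vertical axis, from 0) of the 10 members in each of the 12 libraries, grouped on the horizontal axis by genotype and DSS; points are libraries with their replicate number, the bar is the mean and the whisker the SD (n = 3). Socs3 was at 16.7 to 23.9 CPM in untreated and 275.5 to 357.4 CPM in colitic Tmem173fl/fl libraries, while the colitic Tmem173iΔmye libraries ran from 57.1 to 219.9 CPM.

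In colitic Tmem173iΔmye mice, Socs3 alone was called over untreated Tmem173iΔmye mice, where 1.48% of all genes tested were called higher and 0.597% lower. The untreated libraries were at 18.9, 23.2 and 27.5 CPM and the colitic ones at 219.9, 133.4 and 57.1 CPM. All colitic libraries were higher, library 5 least, and the mean rose 5.89-fold (log2 fold change 2.55, SE 0.41, edgeR adjusted p 0.0145). Without library 5 it was 2.96 (adjusted p 8.28e-05). The call was lost when any 1 untreated library was left out (2.43 to 2.73, adjusted p 0.112 to 0.128) and with limma on log2(FPKM + 0.1) (2.37, adjusted p 0.118).

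Stat3 was at 181.4, 189.9 and 206.1 CPM in untreated and at 363.1, 364 and 291.2 CPM in colitic Tmem173iΔmye mice. The groups did not overlap, but the log2 fold change of 0.82 (SE 0.19, edgeR adjusted p 0.0630) missed both thresholds. Without library 5 it was 0.94 with an adjusted p of 0.0104, still under the fold minimum. Socs2 was at 28.0, 31.1 and 34.6 CPM without DSS and at 39.6, 49.3 and 25.4 CPM with DSS, so that library 5 lay below every untreated library (0.28, SE 0.25, adjusted p 0.653). Without library 5 the difference was 0.53 (adjusted p 0.145).

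The other 7 members had log2 fold changes from -0.42 (Cish) to 0.73 (Stat4) and edgeR adjusted p-values from 0.496 to 0.883. In all, 3 members were higher without overlap (12.1% of all genes tested were) and 0 lower (9.41% were), and 2 of the 10 had an unadjusted p under 0.05, as did 15.6% of all genes. The median of the members was 0.28, and that of all genes was 0.02. Without library 5, 7 members were higher without overlap (20.5% of all genes were) and 0 lower (18.5%), and the members' median was 0.49. Jak2 was at 125.6, 152.3 and 131.2 CPM without DSS and at 178.2, 196.7 and 110.9 CPM with DSS (0.24, SE 0.24, adjusted p 0.681), with library 5 below and the others above all untreated libraries. Without library 5 it was 0.48 (adjusted p 0.159), and the other 6 members ran from -0.18 (Cish) to 1.03 (Stat4, adjusted p 0.193), with Socs1 at 0.019.

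Without DSS no member was called between the genotypes. None of the 24102 genes tested was called by edgeR (0%), while 2.99% had an unadjusted p under 0.05 and DESeq2 called 8 genes, none of them a member. The largest differences among the members were -0.43 for Stat4 and 0.35 for Socs2. Socs2 was the 1 member with an unadjusted p under 0.05 (SE 0.16, unadjusted p 0.0470, adjusted p 1 by edgeR). All Tmem173iΔmye libraries (28.0 to 34.6 CPM) were above all Tmem173fl/fl libraries (22.9 to 25.6 CPM). Stat3 (-0.16) and Stat5a (-0.28) were lower without overlap, also with an adjusted p of 1, and 3.66% of all genes were higher and 3.68% lower without overlap.

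Between the colitic genotypes no member was called. In colitic Tmem173iΔmye libraries 0.822% of all genes tested were called higher and 1.99% lower than in colitic Tmem173fl/fl libraries, and 20.2% of all genes, with 2 of the 10 members, had an unadjusted p under 0.05. Socs3, Socs2 and Stat3, the members that had risen with DSS in Tmem173fl/fl mice, were the 3 whose colitic Tmem173iΔmye libraries all lay below the colitic Tmem173fl/fl libraries. Of all genes 14.8% were lower and 12% higher without overlap. Without library 5 the same 3 members were lower without overlap (19.2% of all genes were) and 1, Jak2, was higher (17.7%). This comparison shares the colitic Tmem173fl/fl libraries with the DSS comparison of that genotype, so that a gene high in those libraries by chance would be high in one and low in the other.

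Socs3 averaged 136.8 ± 81.5 CPM in colitic Tmem173iΔmye and 321.4 ± 41.9 CPM in colitic Tmem173fl/fl libraries (SD, n = 3 each), a ratio of means of 0.426. The log2 fold change was -1.24 (SE 0.42, unadjusted p 0.0168, adjusted p 0.149 by edgeR). The call depended on the fit. With DESeq2 it was -1.21 (adjusted p 0.0391), in a fit of all 12 libraries -1.23 (adjusted p 0.0406), and without colitic Tmem173iΔmye library 1 -1.78 (adjusted p 0.0369). Without library 5 it was -0.87 (adjusted p 0.138).

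Socs2 was at 38.1 ± 12.1 CPM in colitic Tmem173iΔmye and 60.5 ± 9.06 CPM in colitic Tmem173fl/fl mice (log2 fold change -0.68, SE 0.25, unadjusted p 0.0246, adjusted p 0.178 by edgeR; without library 5, -0.46). Stat3 was at 339.4 ± 41.8 and 428.0 ± 47.8 CPM (-0.34, SE 0.20, adjusted p 0.368; without library 5, -0.25). The nearest libraries of Stat3 were close, 364 against 382.5 CPM. Jak2 and Socs1 had the highest estimates, 0.45 (SE 0.23, adjusted p 0.329) and 0.43 (SE 0.52, adjusted p 0.681), and both overlapped between the groups. Without library 5 they were 0.65 (adjusted p 0.0952) and 0.81 (adjusted p 0.363), and Socs1 ran from 0.0035 without colitic Tmem173iΔmye library 2 to 0.87 without colitic Tmem173fl/fl library 2. The other 5 members lay from -0.39 (Stat5a) to -0.15 (Cish), and from -0.30 (Stat5a) to 0.056 (Cish) without library 5. The members' median was -0.24 (-0.10 without library 5), and that of all genes was 0.02.

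The interaction, which tests whether DSS changed a gene differently in the genotypes, called 0 of 10 members at a background of 0.934% of genes called higher and 1.61% lower. It was -1.50 for Socs3 (SE 0.49, edgeR adjusted p 0.126) and -1.01 for Socs2 (SE 0.30, edgeR adjusted p 0.0927), the 2 members with an unadjusted p under 0.05, as had 18.1% of all genes. DESeq2 called both (-1.54, adjusted p 0.0355, and -1.05, adjusted p 0.0273), as did edgeR without the filter on low values (-1.56, adjusted p 0.0174, and -1.07, adjusted p 0.0371). Without library 5 the interactions were -1.15 (adjusted p 0.0877) and -0.80 (adjusted p 0.0966). For Stat3 it was -0.17, so the DSS response of Stat3 was not found to differ between the genotypes, while Jak2 had the highest value, 0.57 (SE 0.28, adjusted p 0.303; without library 5, 0.76, adjusted p 0.0891). Stat3 was at -0.09 without library 5, and the other 6 members lay from -0.30 (Cish) to 0.46 (Socs1), and from -0.10 (Cish) to 0.81 (Socs1) without library 5.

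**Figure D2:**
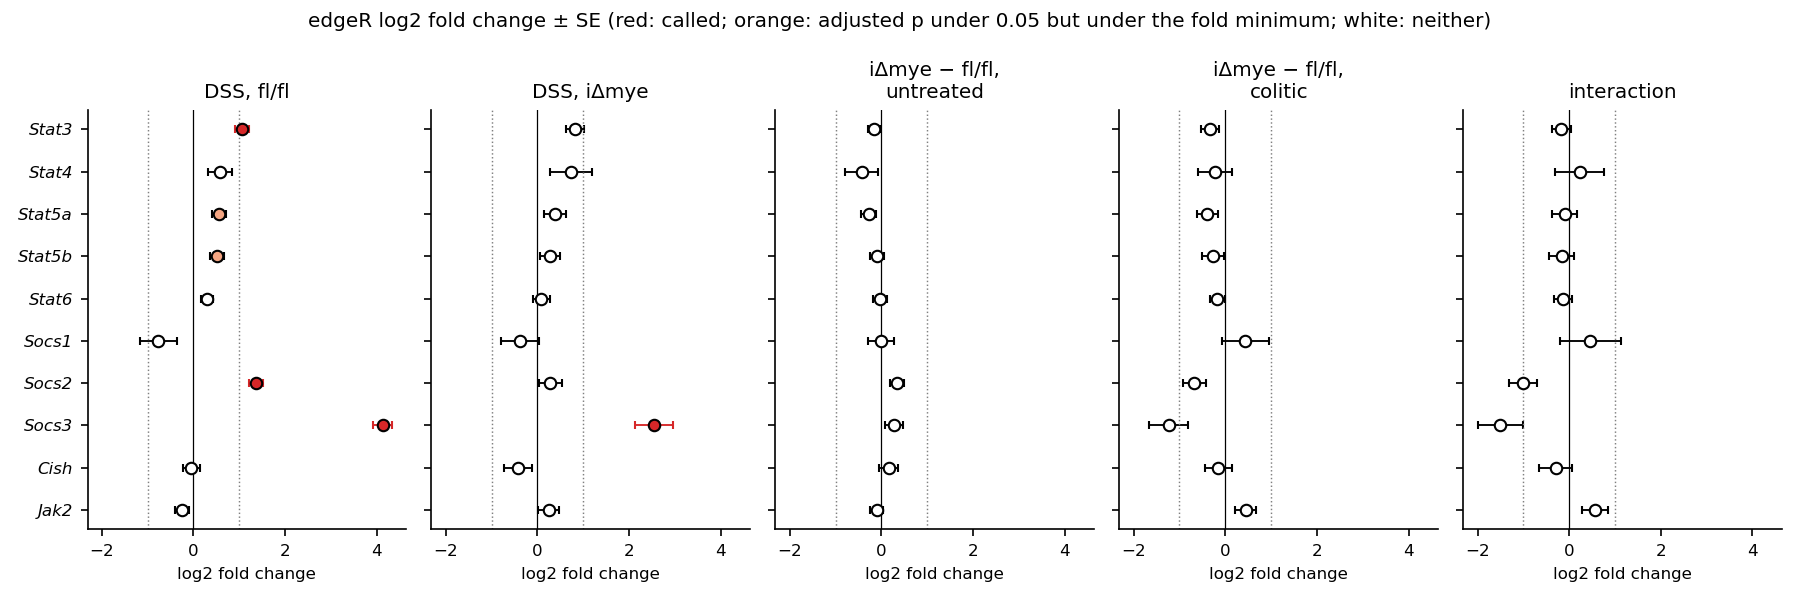
Log2 fold changes from edgeR with their SE (horizontal axis) for the 10 members in each of 5 comparisons; red points were called, orange points passed the adjusted p but not the fold minimum (dotted lines), and white points did neither. Called points are Socs3, Socs2 and Stat3 for DSS in Tmem173fl/fl mice and Socs3 (2.55) for DSS in Tmem173iΔmye mice.

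Levels of different members can be set side by side only per transcript length, as FPKM. In untreated Tmem173fl/fl mice the order was Jak2 (28.5 FPKM), Stat6 (25.8), Stat3 (22.1), Stat5b (8.13), Socs3 (6.50), Socs1 (6.16), Stat5a (2.76), Socs2 (2.53), Cish (2.45) and Stat4 (0.795), as group means. Jak2 and Stat6 overlapped between libraries, as did the neighbours from Stat5b to Socs1 and from Stat5a to Cish. In colitic Tmem173fl/fl mice Socs3 moved to the top at 112.4 FPKM, above Stat3 at 45.4, Stat6 at 31.03 and Jak2 at 23.7, and none of these neighbours overlapped. In colitic Tmem173iΔmye mice Socs3 was at 46.9, Stat3 at 35.2, Jak2 at 31.8 and Stat6 at 27.0 FPKM, and each of these neighbours overlapped with the next. Without library 5 only Stat3 and Jak2 overlapped, since Socs3 was at 45.5 and 75.9 FPKM against 37.7 and 38.0 for Stat3, and Jak2 at 35.4 and 38.6 against 26.8 and 30.4 for Stat6.

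The ratio of Socs3, the inhibitor, to Stat3, the factor that induces it, was taken within each library. It was 0.295 ± 0.0614 in untreated Tmem173fl/fl, 0.396 ± 0.0486 in untreated Tmem173iΔmye, 2.503 ± 0.504 in colitic Tmem173fl/fl and 1.28 ± 0.678 in colitic Tmem173iΔmye libraries (SD, n = 3 each). The colitic libraries were at 3.08, 2.14 and 2.29 in Tmem173fl/fl and at 1.996, 1.21 and 0.646 in Tmem173iΔmye mice, without overlap. The differences with DSS were 2.21 in Tmem173fl/fl and 0.887 in Tmem173iΔmye mice, and that between the colitic genotypes was -1.22, each at p = 0.1 in an exact two-sided permutation test, the smallest it can give. Without library 5 the DSS difference in Tmem173iΔmye mice was 1.21 and that between the colitic genotypes -0.90, and without colitic Tmem173iΔmye library 1 they were 0.531 and -1.58. Between the untreated genotypes the difference was 0.101 (exact p = 0.2).

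The genes whose pattern over the 12 libraries lay nearest to the called members were found by the root mean square distance of centred log2 CPM among 14558 genes. For Socs3 they were Adamtsl2 (0.239), Hdc (0.264) and Cpxm1 (0.316), for Socs2 Glipr2 (0.165), Arl8a (0.172) and Rsad1 (0.174), and for Stat3 Gabbr1 (0.151), Kctd18 (0.153) and Tnfrsf1a (0.154).

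The cytokines that start these pathways were examined next, as a list of 19 ligand genes of which 18 were tested. For this list and those below, the background of all genes called higher and lower was 14.9% and 7.61% for DSS in Tmem173fl/fl mice. It was 1.48% and 0.597% for DSS in Tmem173iΔmye mice, 0.822% and 1.99% between the colitic genotypes, and 0.934% and 1.61% in the interaction. Of the 18 ligands DSS raised 7 in Tmem173fl/fl mice, with the median at 0.68 (0.84 when genes with a group at the floor of 3 counts were set to their bound), and lowered 1, Ifng (-2.65, edgeR adjusted p 0.0261), the gene of interferon-γ. Csf3, which encodes the neutrophil growth factor G-CSF, had 0 counts in all untreated libraries and 61.3, 71.7 and 28.9 CPM in the colitic Tmem173fl/fl ones, at least 262-fold higher with the floor taken per library. Il6, whose product signals through gp130 to STAT3, was at the floor without DSS and at 38.8, 9.80 and 23.4 CPM with DSS, at least 117-fold higher. Il11, another gp130 cytokine, was at 0.152, 0.542 and 0 CPM without DSS and at 94.9, 26.7 and 157.4 CPM with DSS (8.69, SE 0.86, adjusted p 4.68e-05), and Osm, the gene of oncostatin M, rose from 0.342 to 15.1 CPM (5.51, SE 0.33, adjusted p 2.54e-06).

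The same 4 ligands were those called with DSS in Tmem173iΔmye mice, and they were also the 4 called lower between the colitic genotypes, where 0 ligands were called higher and the list's median was -0.24. The list as a whole did not show a smaller DSS response in Tmem173iΔmye mice. Its median there was 1.01 (0.78 with the bounds), with 13 of 18 estimates above 0, against 11 of 18 in Tmem173fl/fl mice. In the interaction its median was 0.32, with 10 estimates above 0 and 8 below. For DSS in Tmem173iΔmye mice 2 ligands were called without untreated library 1 and 5 without library 5, and for DSS in Tmem173fl/fl mice the number fell from 8 to 5 without untreated library 1. In colitic Tmem173iΔmye libraries Csf3 was at 5.56, 10.5 and 1.28 CPM (genotype difference -3.24, SE 0.65, edgeR adjusted p 0.0388). Il11 was at 12.4, 10.8 and 5.89 CPM (-3.27, SE 0.59, edgeR adjusted p 0.0300). Il6 was at 5.42, 4.67 and 4.01 CPM (-2.36, SE 0.46, adjusted p 0.0346) and Osm at 4.99, 4.17 and 1.58 CPM (-2.09, SE 0.43, adjusted p 0.0406). None of the 4 overlapped between the colitic genotypes, and 0 of the 18 ligands were called in the interaction. These calls lie near the threshold, and 0 ligands were called without colitic Tmem173fl/fl library 1 and 2 without library 5 of the colitic Tmem173iΔmye group.

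Of 26 receptor genes (median 1.13), DSS raised 14 in Tmem173fl/fl mice and lowered Il12rb2, a chain of the interleukin-12 receptor (-1.50, edgeR adjusted p 0.0224). The largest rises at a mean FPKM of at least 1 were Csf3r, the G-CSF receptor (3.16, SE 0.22, adjusted p 6.74e-06), Osmr, the oncostatin M receptor (2.76, SE 0.15, adjusted p 1.62e-06), Il7r (2.45) and Csf2rb (2.29). In Tmem173iΔmye mice 4 rose. Osmr went from 15.3, 18.0 and 13.5 to 93.8, 68.4 and 73.1 CPM (2.33, SE 0.22, edgeR adjusted p 0.000769). Il6ra (1.34, adjusted p 0.0471), Lifr (1.15, adjusted p 0.0462) and Il6st, the gene of gp130 (1.11, adjusted p 0.0356), followed, while Csf3r (2.11, adjusted p 0.0504) and Csf2rb (1.82, adjusted p 0.0753) had higher estimates than these 3 and did not pass the test. These last values are near the threshold, and the number of receptors called ran from 1 to 9 as single libraries were left out, with 1 without untreated Tmem173iΔmye library 1 and 9 without library 5. Between the colitic genotypes 1 receptor was called lower, Lepr, the leptin receptor (-1.51, adjusted p 0.0499), which was lost without library 5, while 6 receptors were called without library 1 of that group.

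STAT3 target genes had the largest median change with DSS among the 4 lists of STAT targets in both genotypes. The lists were chosen with earlier results of these data known, so their order by median is no test of which factor acted. Of 11, DSS raised 9 in Tmem173fl/fl mice (median 5.37) and 4 in Tmem173iΔmye mice (median 2.28). Saa3, an acute phase protein gene, was at 6.51, 2.44 and 2.32 CPM without DSS and at 1109, 1939 and 752.1 CPM with DSS in Tmem173fl/fl mice (8.48, SE 0.56, edgeR adjusted p 4.39e-06). It was at 117.6, 136.6 and 41.6 CPM in colitic Tmem173iΔmye mice (3.67, adjusted p 0.0259 for DSS). Lcn2, which encodes an iron-sequestering antibacterial protein, was at 857.7, 1019 and 424.5 CPM in colitic Tmem173fl/fl and at 83.2, 86.8 and 14.3 CPM in colitic Tmem173iΔmye mice. Its DSS effect was 8.44 in Tmem173fl/fl (adjusted p 7.05e-07) and 4.28 in Tmem173iΔmye mice (adjusted p 0.00809). The antibacterial lectin genes Reg3b (8.37) and Reg3g (6.93) rose in Tmem173fl/fl mice, but in colitic Tmem173iΔmye mice Reg3b was at 1006, 1806 and 0.425 CPM, with library 5 below the untreated libraries (2.16 to 14.7 CPM; DSS effect 6.78, adjusted p 0.0939).

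Between the colitic genotypes all 11 STAT3 targets had a negative estimate, with a median of -0.90, and 3 were called lower, Saa3 (-3.70, edgeR adjusted p 0.0167), Lcn2 (-3.65, adjusted p 0.0293) and Timp1, an inhibitor of matrix proteases (-1.84, adjusted p 0.0311). The negative signs of Reg3b and Reg3g lean on library 5, which was at 0.425 and 0.668 CPM. Library 2 of that group was at 1806 and 450.5 CPM, above every colitic Tmem173fl/fl library (at most 1644 and 295.9 CPM). The signs and the median of the list are given with library 5 only. Without DSS the list lay the other way, with 10 of 11 estimates higher in Tmem173iΔmye mice, a median of 0.97 and 0 called (2 without the filter on low values and 3 with the replicate block). Untreated Hp averaged 28.6 ± 16.2 CPM with the Cre against 7.55 ± 2.97 CPM without it (1.92, SE 0.40, edgeR adjusted p 1), and Lrg1 averaged 6.59 ± 1.76 against 2.85 ± 0.856 CPM (1.21, SE 0.31, edgeR adjusted p 1; SD, n = 3 each), both without overlap. The nearest Hp libraries were close, 10.8 against 10.6 CPM, and 3.66% of all genes tested were higher without overlap. Adipocyte markers moved in the same direction, with 5 of 5 estimates higher in untreated Tmem173iΔmye mice (median 1.28), 0 called, and a summed level of 16.9 to 41.4 against 3.55 to 15.1 FPKM. All 7 macrophage, 5 endothelium and 6 smooth muscle estimates were also higher (medians 0.11, 0.14 and 0.16), and all 7 pancreas estimates were lower (-0.92), with 0 called. The part of these cell types in the difference was not tested. This difference between untreated mice enters the interaction. In the interaction 4 were called, Saa3 (-4.73, adjusted p 0.0200), Hp, the haptoglobin gene (-4.49, adjusted p 0.0167), Lcn2 (-4.09, adjusted p 0.0134) and Timp1 (-3.02, adjusted p 0.0462). The number called ran from 0 to 5 between the colitic genotypes and from 1 to 7 in the interaction as single libraries were left out, lowest without colitic Tmem173fl/fl library 1 and without untreated Tmem173fl/fl library 3, highest in both without colitic Tmem173iΔmye library 1, and it was 3 in both without library 5. For DSS in Tmem173iΔmye mice the number ran from 1 without untreated library 2 to 8 without library 5.

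**Figure D3:**
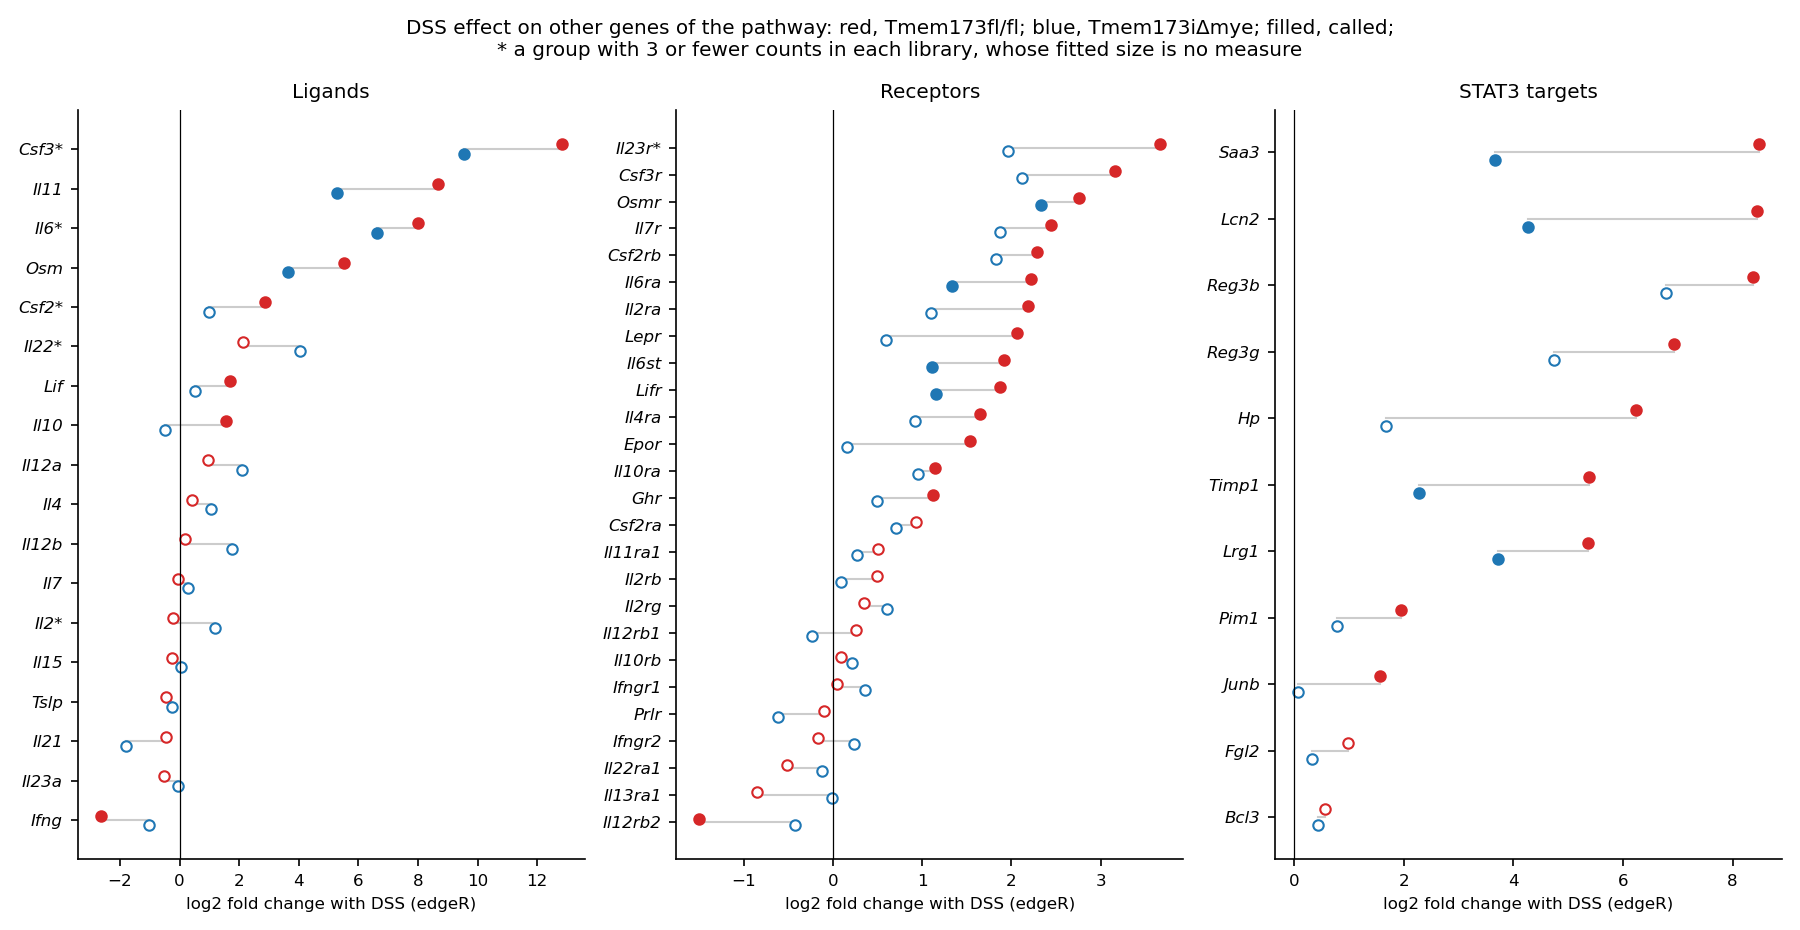
Log2 fold change with DSS (edgeR, horizontal axis) of ligand, receptor and STAT3 target genes in Tmem173fl/fl (red) and Tmem173iΔmye mice (blue); filled points were called, and an asterisk marks genes with 3 or fewer counts in each library of a group, whose fitted size is no measure. Of the STAT3 targets 9 were called in Tmem173fl/fl and 4 in Tmem173iΔmye mice.

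The targets of the other STAT factors had smaller medians with DSS. In colitic Tmem173iΔmye against colitic Tmem173fl/fl mice the medians were -0.57 for STAT5, 0.73 for STAT6 (5 of 8 estimates higher in Tmem173iΔmye mice) and 0.21 for STAT4 targets, with 1 STAT5 target, Osm, called lower and 0 called in the other lists. The call of Osm was lost without any 1 colitic Tmem173fl/fl library or colitic Tmem173iΔmye library 2, and without library 5 the numbers were 1, 1 and 0. Without DSS the STAT6 median was 0.86 (0.52 with Ccl24 at its bound), with 0 called (1 without the filter on low values and 2 with the replicate block). Of 7 STAT5 targets 5 rose in Tmem173fl/fl mice (median 1.96), among them Igf1, a growth factor gene (2.72, edgeR adjusted p 0.000185), Il2ra (2.19), the kinase gene Pim1 (1.96) and Osm, and Ccnd2, a cyclin gene, fell (-1.49, adjusted p 0.00011). In Tmem173iΔmye mice 2 rose, Igf1 (1.53, adjusted p 0.00651) and Osm. Of 8 STAT6 targets 4 rose in Tmem173fl/fl mice (median 1.43, or 0.85 with Ccl24 at its bound). Among them were Chil3, a chitinase-like gene of macrophages (5.12), Ccl11, the eosinophil chemokine eotaxin (3.66), and Il4ra, a chain of the interleukin-4 receptor (1.65). In Tmem173iΔmye mice 2 rose, Chil3 (3.36, adjusted p 0.000679) and Ccl11 (2.17, adjusted p 0.0322). Of 5 STAT4 targets 1 rose in Tmem173fl/fl mice, Il18rap (2.46), and 2 fell, Ifng and Il12rb2, and 0 were called in Tmem173iΔmye mice. The 3 STAT4 target calls became 1 without untreated Tmem173fl/fl library 1 and also 1 without untreated library 3. Without library 5 of the colitic Tmem173iΔmye group 3 STAT5, 4 STAT6 and 0 STAT4 targets were called for DSS in that genotype, and without untreated Tmem173iΔmye library 1 the numbers for STAT5 and STAT6 were 0 and 1. The lists share genes (Osm, Pim1, Il2ra, Il4ra, Ifng, Il12rb2), so their counts are not separate evidence.

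Of 18 further genes of the JAK-STAT core, 2 rose and 2 fell with DSS in Tmem173fl/fl mice and 0 were called in Tmem173iΔmye mice or between the colitic genotypes, with or without library 5. Among those that fell was Stat2, a factor of interferon signalling. It was at 424.5, 272.9 and 206.2 CPM without DSS and at 55.9, 103.1 and 49.3 CPM with DSS, without overlap (-2.04, SE 0.33, edgeR adjusted p 0.000929). In Tmem173iΔmye mice its DSS effect was -0.95 (SE 0.21, edgeR adjusted p 0.0494), also without overlap and under the fold minimum. Those that rose were Ptpn1, a phosphatase that removes phosphate from JAK2 (1.38, adjusted p 8.91e-05), and Jak3 (1.01, adjusted p 0.00689). In whole tissue, fewer cells of a type and less RNA per cell cannot be told apart.

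Cell type markers moved with these groups. All 8 neutrophil markers rose with DSS in Tmem173fl/fl mice, and their summed level was 43.8 to 105 FPKM in untreated and 549 to 913 FPKM in colitic libraries. In Tmem173iΔmye mice the sum went from 43.2 to 81.6 up to 230 to 322 FPKM, with 6 of 8 called, and Mmp8 was at 0 in the untreated libraries. Between the colitic genotypes 5 of 8 were called lower. Of 6 fibroblast markers 6 rose in Tmem173fl/fl mice, from 144 to 173 up to 1017 to 1275 FPKM, and 1 in Tmem173iΔmye mice, to 296 to 416 FPKM, and 5 were lower between the colitic genotypes. Of 7 macrophage markers 6 rose in Tmem173fl/fl mice, from 107 to 133 up to 367 to 502 FPKM. In Tmem173iΔmye mice 1 rose, and the sum was 104 to 173 FPKM in untreated and 128 to 315 FPKM in colitic libraries, with overlap. All 5 endothelium markers rose in Tmem173fl/fl mice and 6 of 10 epithelium markers fell and 1, Car1, rose (1.63, edgeR adjusted p 0.00293, named after its value was seen), while 0 in either list were called with DSS in Tmem173iΔmye mice. Between the colitic genotypes 1 of 7 macrophage and 1 of 5 endothelium markers were called lower and 1 of 10 epithelium markers higher. Of 6 B and plasma cell markers 1 rose with DSS in Tmem173fl/fl mice, 1 was lower between the colitic genotypes and 1 in the interaction. In the interaction 4 of 6 fibroblast, 2 of 5 endothelium and 1 of 7 macrophage markers were called lower and 2 of 10 epithelium markers higher, while 7 of 8 neutrophil markers had a negative estimate (median -2.53) with 0 called. The 8 T and NK cell markers had 0 calls in any of these comparisons. The summed pancreas markers ran from 0.0224 to 7219 FPKM over the 12 libraries and were highest in library 1 of both colitic groups, with 0 of 7 called. The part of these cell types in the changes of Socs3, Socs2, Stat3, the ligands, the receptors and the targets was not tested.

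**Figure D4:**
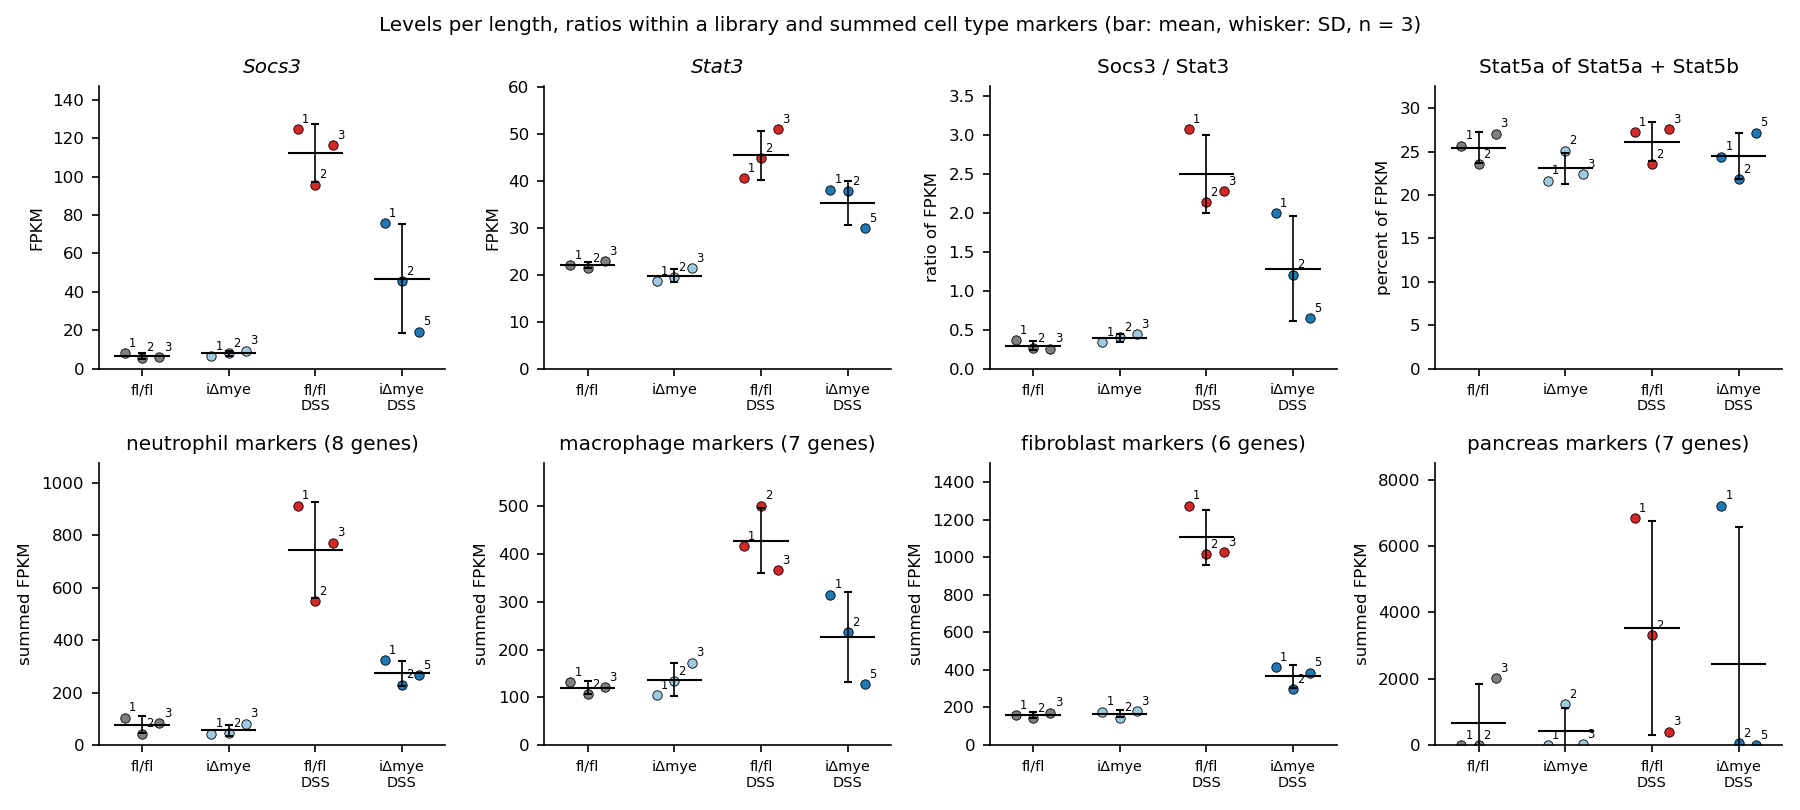
Socs3 and Stat3 FPKM, the ratio of Socs3 to Stat3 FPKM within a library, the share of Stat5a in Stat5a plus Stat5b, and summed FPKM of neutrophil, macrophage, fibroblast and pancreas markers (vertical axes, from 0) in each library by group; the bar is the mean and the whisker the SD (n = 3). The ratio was 2.14 to 3.08 in colitic Tmem173fl/fl and 0.646 to 1.996 in colitic Tmem173iΔmye libraries, and neutrophil markers did not overlap between these groups.

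Some members share bases with other genes, and the sources used here do not say whether reads were counted by strand. Stat3 and Stat5a overlap by 72 bases on opposite strands, Stat6 and Nab2 by 40 bases, and Cish with the pseudogene Gm17040 by 1167 and the antisense gene Gm17041 by 1459 bases, both on the opposite strand. Stat4 overlaps with Gm28177 on its own strand by 29929 bases and with the pseudogene Gm3940 on the opposite strand by 432 bases. Reads in these stretches cannot be assigned with certainty, and Stat5a and Stat5b are close copies whose reads could be split between them.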

How the data were processed

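Total colonic RNA was extracted with TRIzol, purified with lithium chloride and made into libraries with the NEBNext Ultra RNA kit. The submitters' processing notes name CASAVA 1.8, fastp, HISAT2 2.0.5, featureCounts 1.5.0-p3, DESeq2 1.20.0 and the builds GRCm38 and mm10. The authors deposited whole-number counts per gene and FPKM, which scale by gene length and library. Their deposited fold changes, p-values and group means were not used.

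The filter kept 24102 of 54532 genes (FPKM 0.1 or more, 3 or more of 12 libraries). Counts were tested with edgeR 4.0.16 (glmQLFit, glmQLFTest, TMM) in R 4.3.3. Each fit held the groups compared, and the interaction all 12 libraries. The call rule combined an adjusted p (Benjamini-Hochberg, all genes tested) under 0.05 with an absolute log2 change of 1 or more. The SE is the log2 fold change divided by the square root of F. CPM use TMM-scaled totals, and a fold against a group at 3 or fewer counts per library is a lower bound. Library totals were 13823237 to 18718915 counts, and whether they limit genes of few counts was not tested. Ratios were compared by exact permutation with SciPy 1.17.1. The tests were tried on simulated data.

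Members and gene lists were chosen with earlier results of these data known. Named genes were all members, Tmem173, up to 4 called genes per list, direction and comparison with the largest change and a mean FPKM of at least 1, and the 3 genes nearest to each called member. Ifng, Il12rb2, Ccl24 and the values of a named gene in further comparisons were chosen after they were seen. Alternatives were RLE and upper-quartile scaling, no filter or an FPKM of 1, DESeq2 1.42.0, limma 3.58.1 on log2 FPKM with a pseudocount of 0.1 or 1, the adjusted p alone, a fit of all libraries, a replicate block, and leaving out single libraries. The same alternatives for list genes, and the members' medians and counts without overlap when library 5 is left out, were added after the data were seen. Some genes of the lists are not reported here by name.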

Additional observations from a re-analysis of the deposited data

Results flagged for a closer look

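In 4 STAT3 target genes the effect of DSS differed between the genotypes by the interaction test of edgeR over all 12 libraries. The number called ran from 1 to 7 as single libraries were left out, and it was 3 without library 5 of the colitic Tmem173iΔmye group. The interaction was -4.73 for Saa3 (DSS effect 8.48 in Tmem173fl/fl and 3.67 in Tmem173iΔmye mice), -4.09 for Lcn2 (8.44 and 4.28), -4.49 for Hp (6.23 and 1.67) and -3.02 for Timp1, on the log2 scale. Without DSS the genotypes differed by 1.05, 0.45, 1.92 and 1.19 for Saa3, Lcn2, Hp and Timp1, none of them called by this test (of the 11 STAT3 targets 2 were called without the filter on low values and 3 with the replicate block), and these differences enter the interaction. Cell type markers moved in the same test, with 4 of 6 fibroblast markers called lower (median -1.54) and neutrophil markers at a median of -2.53 with 0 of 8 called, and their part in these values was not tested. No member passed this test. The interaction uses the same colitic libraries as the other comparisons, so these values are not separate evidence.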

How the results depend on the processing

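Of the members' log2 fold changes over all comparisons and alternatives, 808 kept direction and side of the thresholds, 12 passed a threshold newly, 8 lost one and 22 turned sign. For DSS in Tmem173fl/fl mice 3 members were called, 5 by the adjusted p alone and from 2 to 4 with a library left out. For DSS in Tmem173iΔmye mice 1 was called, 0 with limma at either pseudocount and from 0 to 1 with a library left out, each untreated library in turn ending the call. Between the colitic genotypes 0 were called, 1 with DESeq2, 1 in a fit of all libraries and from 0 to 1 with a library left out (library 1 of Tmem173iΔmye). In the interaction 0 were called, 2 without the filter, 2 with DESeq2 and from 0 to 1 with a library left out (library 1 or 2 of colitic Tmem173iΔmye). The cause was not tested.

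Over all genes, calls for DSS were 5422 in Tmem173fl/fl (8544 by adjusted p alone, 2848 with limma at a pseudocount of 1) and 501 in Tmem173iΔmye mice (1137 with DESeq2, 981 without the filter, 62 and 58 with limma). Calls between the colitic genotypes were 678 (1619 with DESeq2, 1492 in a fit of all libraries, 1220 without the filter, 140 and 154 with limma). Interaction calls were 614 (1376 with DESeq2, 1228 without the filter), and untreated calls 0 (8 with DESeq2, 68 without the filter).

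Same-numbered libraries correlated from -0.172 to 0.184 in their deviations from group means, so the numbers were not taken to pair samples. With the replicate block, 3, 1, 0, 0 and 0 members were called for DSS in Tmem173fl/fl, DSS in Tmem173iΔmye, the untreated genotypes, the colitic genotypes and the interaction, and 4939, 1369, 94, 849 and 590 genes in all. Under the block the sign turned for Socs1 (0.17) and Cish (0.00012) with DSS in Tmem173iΔmye mice, for Socs1 without DSS (0.066), for Cish between the colitic genotypes (0.030) and for Cish in the interaction (0.0058).

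The other sign changes, all in estimates that did not pass the test, came with limma for Socs1 between the untreated genotypes (0.062 and 0.046) and with single libraries left out. Over the left-out libraries the DSS effect in Tmem173fl/fl mice ran from -0.22 to 0.038 for Cish, and from -0.258 to 1.97 percentage points for the Stat5a share. The DSS effect on Socs1 in Tmem173iΔmye mice ran from -0.82 to 0.019. Between the untreated genotypes Socs1 ran from -0.20 to 0.45, Stat6 from -0.087 to 0.057 and Cish from -0.060 to 0.29. Between the colitic genotypes Cish ran from -0.42 to 0.056 and Stat4 from -0.58 to 0.048. In the interaction Stat4 ran from -0.12 to 0.48, Stat5a from -0.32 to 0.0051 and Tmem173 from -0.38 to 0.15.

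Stat4 had the fewest counts of the members, 21 to 97 per library, and whether depth bears on its missing call was not tested.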
